A study of Oryza sativa with 200 samples.

Results

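Leaves of rice lines that expressed the florigen gene Hd3a (Os06g0157700) were compared with leaves of lines in which it was silent. The lines belong to JAM2, a MAGIC population (several parents intercrossed and then inbred) bred from 4 parents (Toyomeki, Akidawara, Tachiharuka and Iwaidawara), and 100 lines were sequenced once in 2022 (generation F5) and once in 2023 (generation F6). A line was Hd3a-on where the gene had at least 2 CPM (the count scaled to a library total of 1e+06) in both years, and Hd3a-off where it stayed under 0.2 CPM in both years. By this rule 31 lines were Hd3a-on, 30 were Hd3a-off and 39 lay between, so that 122 of the 200 libraries entered the comparison. Every line of both groups was grown in the same way, as 33 plants in 1 unreplicated paddy plot with a basal dressing of chemical fertilizer holding 56 kg of nitrogen per ha. Sampling took the first leaf that had fully opened, 6 weeks after transplanting, between 9:00 and 11:00, on 1 July 2022 and on 29 June 2023. The groups differ in whichever parental segments their lines inherited, and no line was made to differ in Hd3a alone.

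Hd3a encodes a florigen, a small mobile protein made in the leaf that travels through the phloem to the shoot apex. There it binds 14-3-3 proteins and a bZIP factor of the FD type, and the complex switches on MADS-box genes of the AP1/FUL group (OsMADS14, OsMADS15, OsMADS18) that start the flowering programme. In the leaf, transcription of Hd3a is set by day length through regulators such as Hd1 (a CONSTANS-like protein), Ehd3 and DTH8 (a subunit of a CCAAT-binding complex). The SOC1-like gene OsMADS50 promotes flowering of rice in long days.

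The lines were chosen by the measured level of Hd3a, which is therefore given as a description. In 2022 the Hd3a-on lines had 2.10 to 82.7 CPM (median 21.7), and the Hd3a-off lines had 0 counts in 24 of 30 libraries and at most 0.173 CPM. In 2023 the Hd3a-on lines had 2.21 to 36.7 CPM (median 4.29), and the Hd3a-off lines had 0 counts in 26 of 30 libraries and at most 0.198 CPM. Reads of the gene summed to 12516 over the Hd3a-on lines and 6 over the Hd3a-off lines in 2022, and to 2343 over the Hd3a-on lines and 7 over the Hd3a-off lines in 2023. A count of 0 allows up to 3 reads, which is 0.108 to 0.922 CPM at the depths of the Hd3a-off libraries of 2022 and 0.178 to 0.498 CPM at those of 2023. In most of these libraries in each year this lies above the limit of 0.2 CPM, so that a low level could not be told from silence. In 28 of the 31 Hd3a-on lines the level was higher in 2022 than in 2023. The lines just inside the limits were J2_285 (2.10 CPM in 2022) and J2_348 (0.198 CPM in 2023), and those just outside were J2_270 (1.61 CPM in 2023) and J2_304 (0.232 CPM in 2022).

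The groups also differed in their place in the deposited tables. Hd3a-on lines had lower line numbers than Hd3a-off lines. In the 2022 table the median column position was 83 for Hd3a-on lines and 27.5 for Hd3a-off lines, and in the 2023 table it was 16 for Hd3a-on lines and 77.5 for Hd3a-off lines (two-sided permutation test with 100000 resamples, p = 1e-05 in each year, the smallest it can give). The order of the columns thus ran in opposite directions in the years. What the position stands for is not given in the sources used here, so results are followed by their value or their call in a fit with column position as a covariate, which had a median SE 1.54 times as large in 2022 and 2.04 times as large in 2023. Genes under the filter on counts have no value in that fit. In 2022 the Hd3a-on libraries held 5.97e+06 to 3.75e+07 counts (median 1.42e+07) and the Hd3a-off libraries 3.25e+06 to 2.77e+07 (median 7.37e+06; p = 2e-05, same permutation test on log2 totals), and 21 of the 30 deepest libraries of all lines were Hd3a-on and 1 was Hd3a-off. In 2023 the Hd3a-on libraries held 3.73e+06 to 1.61e+07 counts and the Hd3a-off libraries 6.02e+06 to 1.69e+07, with no detectable difference (p = 0.587, same permutation test).

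**Figure D1:**
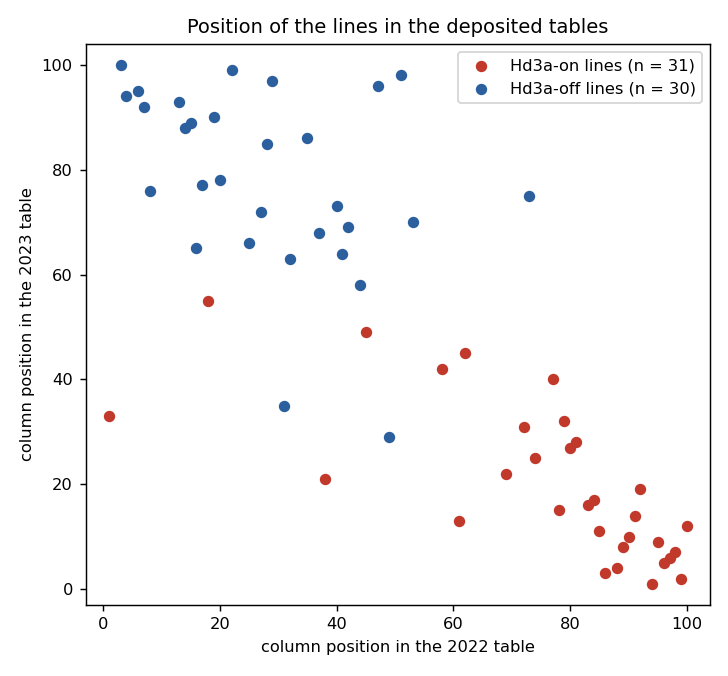
Column position of each line in the 2022 table (x axis) and the 2023 table (y axis), 1 point per line, red for the 31 Hd3a-on lines and blue for the 30 Hd3a-off lines. Hd3a-on lines lie mostly at high positions in 2022 and low positions in 2023, and Hd3a-off lines the other way round, with a shared range of positions 3 to 73 in 2022 and 29 to 55 in 2023.

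Few genes differed by much between the groups in both years. A gene passed at an adjusted p under 0.05 (edgeR's quasi-likelihood test with Benjamini-Hochberg adjustment over all genes) and was called where it passed and differed by at least 2-fold. In 2022 54 genes were called higher and 80 lower in Hd3a-on lines (0.742% of 18065 tested), and in 2023 25 were called higher and 19 lower (0.235% of 18740). Of the 17945 genes tested in both years 19 (0.106%) were called in both in the same direction, 12 higher (0.0669%) and 7 lower (0.039%), which is 14.2% of the 2022 calls and 43.2% of the 2023 calls. Another 2 were called in both years in opposite directions. The years share the lines but no library.

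Small differences were many, and most did not keep their direction. At the adjusted p alone 6766 genes (37.5%; 17.5% higher and 20% lower) passed in 2022 and 1597 (8.52%; 5.5% higher and 3.03% lower) in 2023. Of the 942 genes (5.25%) that passed in both years, 713 (3.97% of genes) had opposite directions and the rest (1.28%) the same direction. The group difference itself differed between the years for 5453 of 19580 genes (27.8%) by the interaction of year and group. This interaction fit takes the libraries of a line as independent, and with each line as a block the count was 6286 (32.1%). Once column position was in the fit without that block, 2 genes (0.0102%) passed and 1360 had an unadjusted p under 0.05. With year as block and both years in 1 fit, 56 genes were called (0.286%). That fit treats the libraries of a line as independent. On the counts summed per line, in a fit with no year term, edgeR called 55 genes (0.269%). The Hd3a-on libraries of 2022 were deeper, so the years do not weigh alike in the sums of the groups. Voom with the line as a random block (an estimated correlation), which changes the tool and the block together, called 107 (0.546%), so the higher count was not seen with summed counts.

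**Figure D2:**
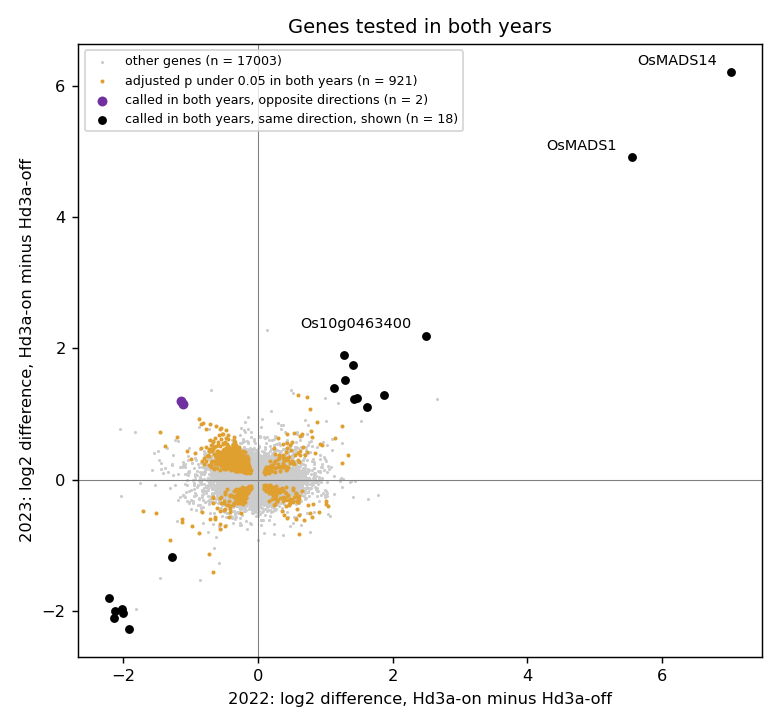
Log2 difference between Hd3a-on and Hd3a-off lines in 2022 (x axis) and 2023 (y axis), 1 point per gene tested in both years. Genes called in the same direction (black, 18 shown) lie on the rising diagonal, with OsMADS14 and OsMADS1 far from the rest, while most genes that passed at the adjusted p alone (orange) lie in the upper left and lower right; the 2 genes called in opposite directions (purple) lie in the upper left.

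**Figure D3:**
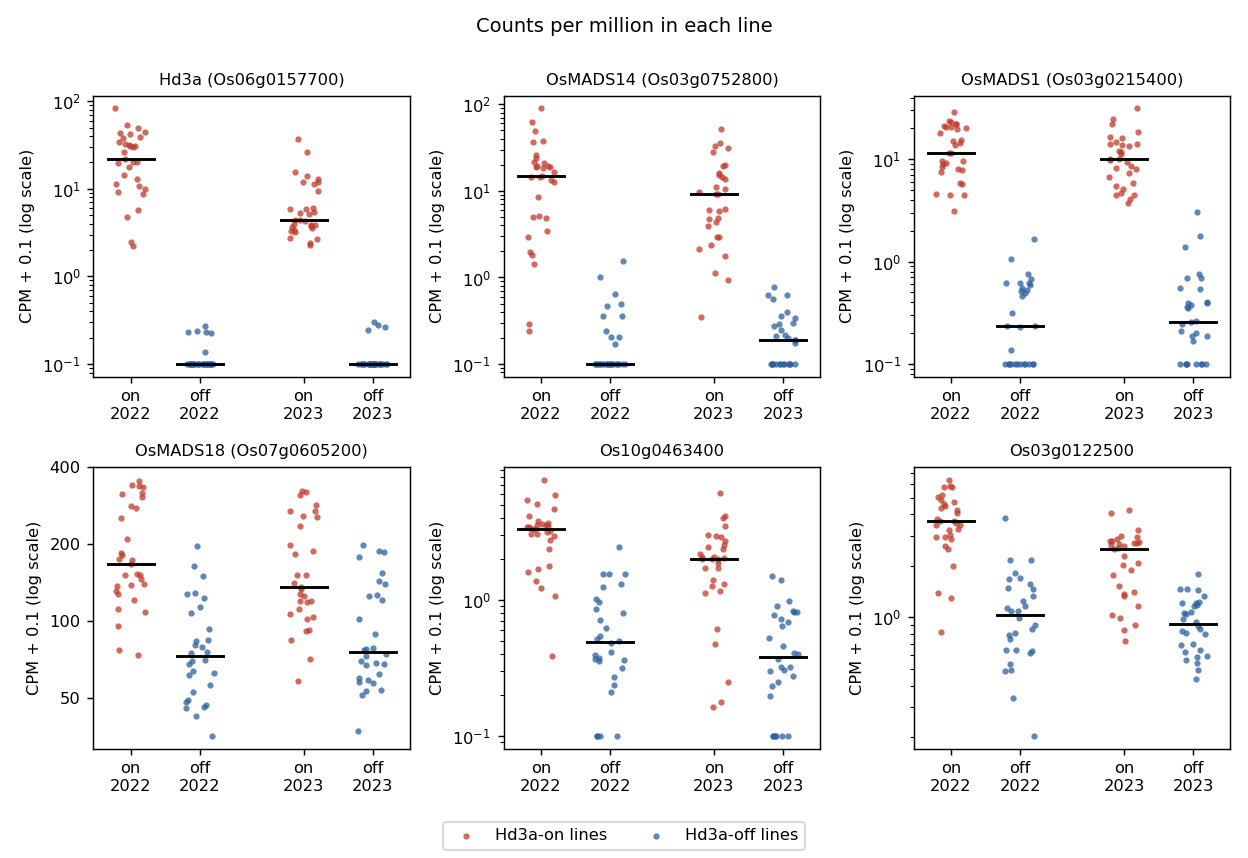
CPM plus 0.1 on a log scale (y axis) in each Hd3a-on line (red, left) and Hd3a-off line (blue, right) in 2022 and 2023, 1 point per line with the group median as a black bar. Hd3a, which chose the groups, and OsMADS1 do not overlap between the groups, OsMADS14 overlaps in few lines, and OsMADS18, Os10g0463400 and Os03g0122500 overlap more widely.

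Among the AP1/FUL-like MADS-box genes, the known targets of the florigen complex at the apex, 2 of 4 had enough counts to be tested and both passed in both years, where 37.5% of all genes passed in 2022 and 8.52% in 2023. OsMADS14 (Os03g0752800) had 0.139 to 89.5 CPM (median 14.7) in Hd3a-on lines and 0 to 1.43 CPM (median 0) in Hd3a-off lines in 2022. In 2023 it had 0.248 to 52.3 CPM (median 8.98) in Hd3a-on lines and 0 to 0.669 CPM (median 0.0892) in Hd3a-off lines. Of 31 Hd3a-on lines, 28 in 2022 and 30 in 2023 lay above the highest Hd3a-off line. The lines between the limits had 0 to 14.3 CPM in 2022 and 0 to 28.9 CPM in 2023. The log2 difference was 7.02 (SE 0.549, adjusted p = 5.57e-15 by edgeR) in 2022 and 6.21 (SE 0.459, adjusted p = 4.49e-16 by edgeR) in 2023. With column position it was 5.92 in 2022 (adjusted p = 5.23e-08 by edgeR) and 2.35 in 2023 (SE 0.768, adjusted p = 0.169 by edgeR), so the 2023 call was lost.

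OsMADS18 (Os07g0605200) was expressed in all lines and differed less. It had 73.6 to 355 CPM (median 168) in Hd3a-on lines and 35.5 to 197 CPM (median 72.7) in Hd3a-off lines in 2022, and medians of 136 CPM in Hd3a-on and 75.7 CPM in Hd3a-off lines in 2023. The groups overlapped, with 11 and 10 Hd3a-on lines above the highest Hd3a-off line in 2022 and 2023. The log2 difference was 1.25 (SE 0.161, adjusted p = 1.68e-08 by edgeR) in 2022 and 0.81 (SE 0.166, adjusted p = 0.000691 by edgeR) in 2023. With column position neither year passed, at 0.58 in 2022 (adjusted p = 0.724 by edgeR) and −0.40 in 2023 (adjusted p = 0.676 by edgeR), where the sign turned.

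OsMADS15 (Os07g0108900) was too low for the filter on counts. It was read in 24 of 31 Hd3a-on lines in 2022 (at most 1.84 CPM) and in 14 of 31 in 2023 (at most 1.69 CPM), and in 1 of 30 Hd3a-off lines in each year (at most 0.143 and 0.178 CPM). Without the filter its log2 difference was 4.68 in 2022 (adjusted p = 2.48e-08 by edgeR) and 3.33 in 2023 (adjusted p = 2.47e-05 by edgeR), and the unequal depth of the groups bears on how often so low a gene is read in 2022. The fourth member, OsMADS20 (Os12g0501700), stayed at or under 0.446 CPM in Hd3a-on lines and at or under 0.451 CPM in Hd3a-off lines in both years.

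OsMADS1 (Os03g0215400), a SEPALLATA-like gene best known for shaping the lemma and palea of the rice flower, separated the groups fully in these leaves. In 2022 it had 3.05 to 28.9 CPM (median 11.4) in Hd3a-on lines and 0 to 1.57 CPM (median 0.134) in Hd3a-off lines. In 2023 it had 3.62 to 31.2 CPM (median 9.85) in Hd3a-on lines and 0 to 2.94 CPM (median 0.160) in Hd3a-off lines, so that every Hd3a-on line lay above every Hd3a-off line in both years. The lines between the limits, which this comparison leaves out, had 0 to 25.0 CPM in 2022 and 0.301 to 7.50 CPM in 2023. They thus reached into the ranges of both groups. The log2 difference was 5.55 (SE 0.301, adjusted p = 8.40e-23 by edgeR) in 2022 and 4.91 (SE 0.314, adjusted p = 5.16e-19 by edgeR) in 2023. With column position it passed in both years, at 4.89 (adjusted p = 3.73e-15 by edgeR) and 3.60 (adjusted p = 1.84e-05 by edgeR). The other SEPALLATA-like genes were low in both groups and none could be tested. OsMADS5, OsMADS7 and OsMADS8 never exceeded 0.162 CPM in Hd3a-on lines or 0.307 CPM in Hd3a-off lines, and OsMADS34 had medians of 0.527 CPM in Hd3a-on and 0.421 CPM in Hd3a-off lines in 2022. OsMADS14 and OsMADS1 were low in most Hd3a-off lines, so they entered the test through the Hd3a-on lines.

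Both genes were also compared in subsets of these lines, which use the same libraries and so are not separate evidence. Without the lines of the 30 deepest 2022 libraries, which left 10 Hd3a-on and 29 Hd3a-off lines, the 2022 log2 difference was 6.94 for OsMADS14 and 5.18 for OsMADS1. Within the positions that both groups hold (8 Hd3a-on and 30 Hd3a-off lines in 2022) it was 5.94 for OsMADS14 (adjusted p = 2.03e-10 by edgeR) and 4.97 for OsMADS1 (adjusted p = 1.68e-11 by edgeR). In 2023 that range held 8 Hd3a-on and 2 Hd3a-off lines, and neither gene passed there, at 4.67 for OsMADS14 and 4.44 for OsMADS1 (adjusted p = 0.650 and 0.141 by edgeR).

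Among the Hd3a-on lines, the level of Hd3a is set beside the levels of these genes as a description, with no test, since that level chose the lines and both genes differ by the same choice. Over the 31 Hd3a-on lines in 2022, log2 CPM of Hd3a had r = 0.839 (rho = 0.827) with that of OsMADS14 and r = 0.849 (rho = 0.808) with that of OsMADS1. In 2023 r was 0.540 for OsMADS14 (rho = 0.619) and 0.730 for OsMADS1 (rho = 0.662). Without the 2 lines farthest from the median of Hd3a, r was 0.788 for OsMADS14 and 0.831 for OsMADS1 in 2022, and 0.499 for OsMADS14 and 0.624 for OsMADS1 in 2023. With the trend over column position removed, r was 0.813 for OsMADS14 and 0.818 for OsMADS1 in 2022, and 0.0562 for OsMADS14 and 0.727 for OsMADS1 in 2023. For OsMADS18 r was 0.661 in 2022 (rho = 0.676) and 0.220 in 2023 (rho = 0.277). With the trend over column position removed it was 0.570 in 2022 and −0.289 in 2023, where the sign turned. Both values of a pair come from 1 library, so they share its depth and its place in the table.

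The locus Os01g0218500, listed as a florigen relative under a symbol that could not be matched to the reference table, had 0 to 3.86 CPM (median 1.41) in Hd3a-on and 0 to 1.00 CPM (median 0) in Hd3a-off lines in 2022, and medians of 1.34 CPM in Hd3a-on and 0 CPM in Hd3a-off lines in 2023. It was under the filter on counts, without which its log2 difference was 2.52 in 2022 (adjusted p = 1.72e-07) and 1.97 in 2023 (adjusted p = 0.000865, both by edgeR).

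The 2 tested partners of florigen, both 14-3-3 genes, did not pass in either year, with or without column position. GF14b (Os04g0462500) had medians of 44.9 CPM in Hd3a-on and 42.7 CPM in Hd3a-off lines in 2022 and of 54.5 CPM in Hd3a-on and 56.3 CPM in Hd3a-off lines in 2023. GF14c (Os08g0430500), an intracellular receptor of Hd3a, had medians of 145 CPM in Hd3a-on and 131 CPM in Hd3a-off lines in 2022 and of 149 CPM in Hd3a-on and 161 CPM in Hd3a-off lines in 2023. Their adjusted p ranged from 0.0835 to 0.764 (edgeR). The third locus listed as a partner, Os09g0540800, whose symbol could not be matched to the reference table, was under the filter on counts, with medians of 0.428 CPM in Hd3a-on and 0.816 CPM in Hd3a-off lines in 2022 and of 0.538 CPM in Hd3a-on and 0.545 CPM in Hd3a-off lines in 2023. Without the filter its log2 difference was −0.62 in 2022 (adjusted p = 0.0403) and −0.24 in 2023 (adjusted p = 0.694, both by edgeR).

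Of the regulators upstream of florigen, 7 named genes were tested, and 5 passed in 2022 (2 higher, 3 lower) and 0 in 2023 by edgeR, where the backgrounds were 37.5% and 8.52% of all genes. Only 10 of the 19 listed regulators had a symbol that could be matched. These counts leave out the others. Among those Os10g0463400 was called in both years and is given below, and none of the rest was called in both years. DTH8 (Os08g0174500) was at −0.41 in 2022 and 0.28 in 2023, and Ehd3 (Os08g0105000, a PHD-finger protein) at −0.24 and −0.03. The kinase gene Hd16 (Os03g0793500) was at 0.14 and 0.05, Hd18 (Os08g0143400) at −0.16 and 0.03, and the trithorax gene TRX1 (Os09g0134500) at 0.11 and −0.04. Ehd4 (Os03g0112700) and OsPRR37 (Os07g0695100) did not pass in either year, OsPRR37 with medians of 168 CPM in Hd3a-on and 169 CPM in Hd3a-off lines in 2022. Hd1 (Os06g0275000) had 0 counts in all libraries of both groups. With column position in the fit 0 of the 7 passed in either year, and the sign of DTH8 and Hd18 turned in 2022, to 0.0847 and 0.0864. RID1 (Os10g0419200) and LFL1 (Os01g0713600) were too low to test.

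The locus Os10g0463400, also listed as an upstream regulator but under a symbol that could not be matched to the reference table, was called higher in both years. This locus was low in most Hd3a-off lines, so it entered the test through the Hd3a-on lines. It had 0.288 to 7.49 CPM (median 3.23) in Hd3a-on lines and 0 to 2.33 CPM (median 0.390) in Hd3a-off lines in 2022, and 0.0619 to 6.01 CPM (median 1.90) in Hd3a-on lines and 0 to 1.40 CPM (median 0.281) in Hd3a-off lines in 2023. In 2022 23 and in 2023 21 of 31 Hd3a-on lines lay above the highest Hd3a-off line. The log2 difference was 2.50 (SE 0.257, adjusted p = 7.11e-11 by edgeR) and 2.19 (SE 0.295, adjusted p = 4.21e-07 by edgeR). With column position it was 1.48 (adjusted p = 0.157) and 0.36 (adjusted p = 0.882, both by edgeR).

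OsMADS50 (Os03g0122600) was lower in Hd3a-on lines in both years, by less than 2-fold. It had 30.0 to 80.5 CPM (median 48.0) in Hd3a-on lines and 41.0 to 87.5 CPM (median 65.5) in Hd3a-off lines in 2022, and 21.6 to 84.0 CPM (median 53.1) in Hd3a-on lines and 61.2 to 102 CPM (median 77.5) in Hd3a-off lines in 2023. The groups overlapped in both years, and the log2 difference was −0.43 (SE 0.0726, adjusted p = 4.02e-06 by edgeR) and −0.57 (SE 0.0705, adjusted p = 4.39e-08 by edgeR). With column position the sizes were close, at −0.50 and −0.46, and the adjusted p were 0.0693 and 0.138 (edgeR). The locus listed next to it, Os03g0122500, went the other way and was called in both years. It had medians of 3.53 CPM in Hd3a-on and 0.936 CPM in Hd3a-off lines in 2022 and of 2.40 CPM in Hd3a-on and 0.820 CPM in Hd3a-off lines in 2023, a log2 difference of 1.87 (SE 0.189, adjusted p = 4.35e-11 by edgeR) and 1.28 (SE 0.162, adjusted p = 7.58e-08 by edgeR). With column position it was 1.49 (adjusted p = 0.00272) and 1.03 (adjusted p = 0.170, both by edgeR). The libraries are stranded, per the labels, but whether the counting used strand is not given in the sources used here, so reads of neighbouring genes that overlap could be shared.

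The remaining SOC1- and SVP-like genes differed little. OsMADS56 (Os10g0536100), a SOC1-like gene known to delay flowering in long days, was at −0.30 in 2022 (adjusted p = 1.05e-05) and −0.11 in 2023 (adjusted p = 0.115, both by edgeR). The SVP-like gene OsMADS55 (Os06g0217300) was at 0.36 in 2022 (adjusted p = 0.000414) and 0.19 in 2023 (adjusted p = 0.190), and OsMADS22 (Os02g0761000) at 0.15 (adjusted p = 0.00264) and 0.05 (adjusted p = 0.355, all by edgeR). OsMADS47 (Os03g0186600) did not pass in either year. Of the 5 genes of this list whose name could be matched 4 passed in 2022 and 1 in 2023, where 37.5% and 8.52% of all genes passed, and 0 passed with column position in either year, where the sign of OsMADS22 turned in 2022, to −0.02.

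Of the 19 genes called in both years, chromosome 12 held 3 (0.311% of its 964 genes tested in both years), and no chromosome but 6 held more. Chromosome 6, which carries Hd3a, held 7, or 0.479% of its 1461 genes tested in both years, against 0.106% of all genes. Of these, 6 lay far from Hd3a, at 445 (Os06g0218200), 752 (Os06g0271500), 823 (Os06g0286700), 865 (Os06g0295500), 866 (Os06g0295700) and 1691 (Os06g0591400) listed loci from Hd3a, and Os06g0271500 and Os06g0286700 were 24 listed loci before and 47 after Hd1. Lines of 1 population share chromosome segments, so neighbouring genes are not independent.

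Several of these genes were silent in some lines and read in others, and most lines held the same state in both years. For Os06g0218200, Os06g0271500, Os06g0295500 and Os06g0295700, lines that were in neither state (neither under 0.2 CPM nor at 2 CPM or more in both years) numbered 1 to 6 of 31 Hd3a-on lines and 0 to 15 of 30 Hd3a-off lines, the 15 being for Os06g0295700. Os06g0271500 had 0 to 79.2 CPM (median 0) in Hd3a-on lines and 0 to 127 CPM (median 55.4) in Hd3a-off lines in 2022, and 0 to 71.5 CPM (median 0) in Hd3a-on lines and 1.69 to 79.5 CPM (median 43.3) in Hd3a-off lines in 2023. It was under 0.2 CPM in both years in 17 of 31 Hd3a-on lines and 0 of 30 Hd3a-off lines, and at 2 CPM or more in both years in 13 Hd3a-on and 29 Hd3a-off lines. The log2 difference was −2.20 in 2022 (SE 0.526, adjusted p = 0.000658 by edgeR) and −1.80 in 2023 (SE 0.476, adjusted p = 0.00967 by edgeR). Os06g0295500 was under 0.2 CPM in both years in 19 Hd3a-on and 4 Hd3a-off lines and at 2 CPM or more in 6 Hd3a-on and 26 Hd3a-off lines, with log2 differences of −2.14 and −2.11. The locus after it, Os06g0295700, was under 0.2 CPM in the same 19 Hd3a-on and 4 Hd3a-off lines and in 6 further Hd3a-on lines, with a log2 difference of −2.03 in 2023 (adjusted p = 0.00414 by edgeR) and an adjusted p of 0.00149 (edgeR) in 2022, also lower. Os06g0218200 was under 0.2 CPM in both years in 24 Hd3a-on and 6 Hd3a-off lines and at 2 CPM or more in 6 Hd3a-on and 22 Hd3a-off lines (log2 difference −2.02 and −1.97). Os06g0218200, Os06g0271500, Os06g0295500 and Os06g0295700 were silent in most Hd3a-on lines, so they entered the test mainly through the Hd3a-off lines.

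The states were not the same lines throughout. Among Hd3a-on lines, 11 were silent for both Os06g0271500 and Os06g0295500, 5 read both, 7 read the first alone and 1 the second alone. The lines between the Hd3a limits were mixed, with 10 silent and 27 reading Os06g0271500 of 39, and 12 silent and 19 reading Os06g0295500. Os06g0286700 was higher, with at least 10 CPM in both years in 15 Hd3a-on, 11 between and 4 Hd3a-off lines, and log2 differences of 1.41 in 2022 (adjusted p = 0.0106) and 1.75 in 2023 (adjusted p = 0.0101, both by edgeR). Os06g0591400 was read in all Hd3a-on and Hd3a-off lines and was lower, with medians of 3.43 CPM in Hd3a-on and 12.8 CPM in Hd3a-off lines in 2022 and of 4.66 CPM in Hd3a-on and 14.9 CPM in Hd3a-off lines in 2023. With column position none of these 6 genes passed in either year (adjusted p 0.301 to 0.860 by edgeR), while each kept its direction.

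**Figure D4:**
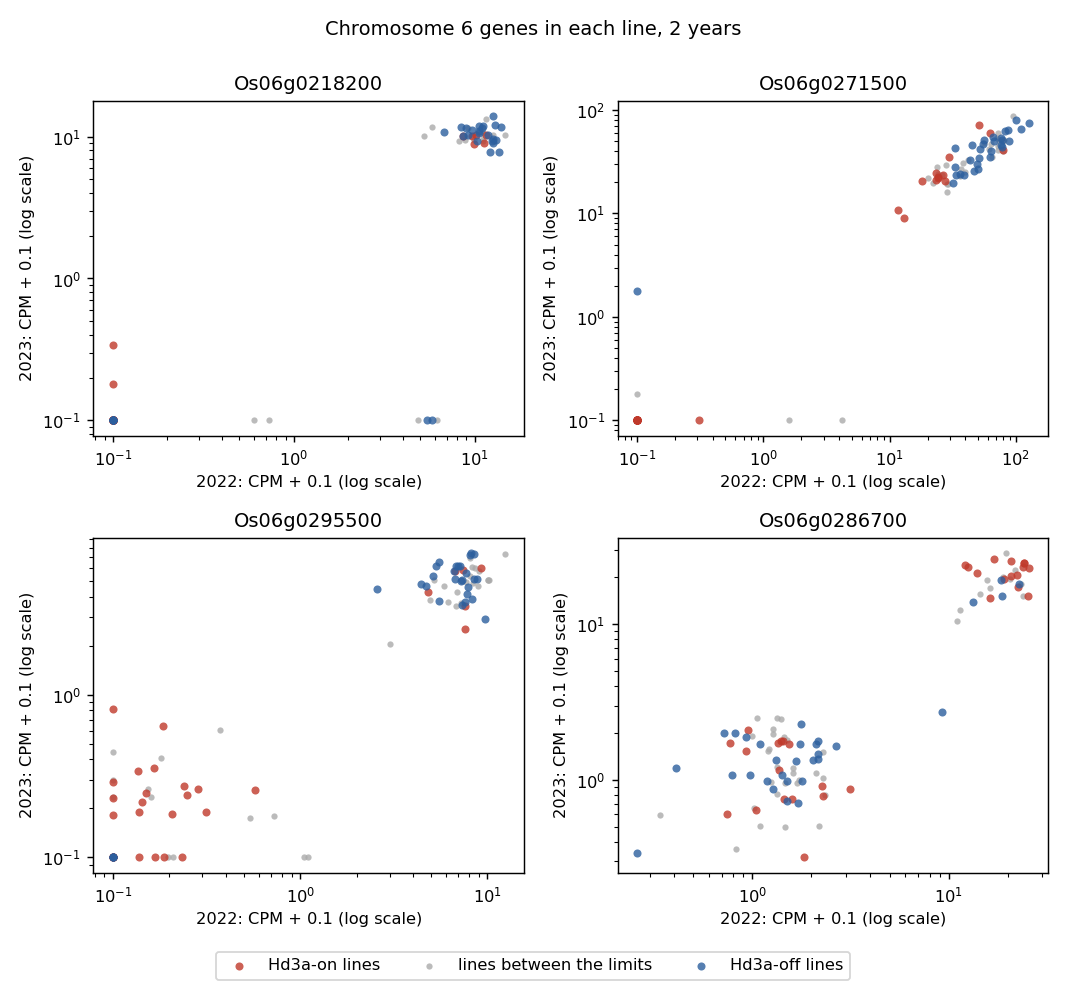
CPM plus 0.1 of 4 chromosome 6 genes in 2022 (x axis) and 2023 (y axis), both on log scales, 1 point per line, red for Hd3a-on, grey for lines between the limits and blue for Hd3a-off. Lines fall into a low and a high cluster and mostly keep to it in both years, with points at 0 counts lying on top of each other; 17 Hd3a-on and 0 Hd3a-off lines are silent for Os06g0271500 in both.

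Outside chromosomes 3 and 6, 8 genes besides Os10g0463400 were called in both years. Os12g0516200, the most abundant of them, had a median of 205 CPM in Hd3a-on lines and 67.8 CPM in Hd3a-off lines in 2022, with 15 Hd3a-on lines above the highest Hd3a-off line, and medians of 237 CPM in Hd3a-on and 64.4 CPM in Hd3a-off lines in 2023. Its log2 difference was 1.43 (adjusted p = 1.51e-10) and 1.22 (adjusted p = 0.000115, both by edgeR), and Os12g0516000, also on chromosome 12, was at 1.47 and 1.25. Os04g0373400 was at 1.62 in 2022 (adjusted p = 2.59e-08) and also called higher in 2023 (adjusted p = 0.00439), Os12g0267200 at 1.29 and 1.51, Os11g0118400 at 1.13 and 1.40, and Os08g0247700 at 1.27 and 1.90 (adjusted p = 0.0325 and 0.00786, all by edgeR). Lower were Os05g0217700, at −1.27 and −1.17, and Os02g0614966, at −1.91 and −2.27.

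Of the 19 genes 15 stayed called in both years whichever of 24 lines was left out, these being the lines with the highest level of one of the genes in a year. The difference of Os02g0614966 rested on the Hd3a-off line J2_315, which had 143 and 148 CPM against medians of 0.567 CPM in Hd3a-on and 0.888 CPM in Hd3a-off lines in 2022. Without J2_315 its log2 difference in 2023 was −0.19 (adjusted p = 0.86 by edgeR), and in 2022 it fell under the filter on counts, as it did in 11 other leave-outs. Without J2_370 the 2022 difference of Os05g0217700 was −0.87 (adjusted p = 0.069 by edgeR). Os12g0516000 lost its 2023 call in 17 of the 24 leave-outs (adjusted p 0.0513 to 0.0837 by edgeR), and Os08g0247700 lost its 2022 call without J2_260 or J2_287.

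With column position as a covariate, 10 genes passed in 2022 (0.0554%) and 47 in 2023 (0.251%), and OsMADS1 was among the 2 that passed in both years. All 19 genes kept their direction in both years in that fit, while 6 of them passed in 2022 and 2 in 2023. Called were 7 genes in 2022 (0.0387%), among them OsMADS14, OsMADS1, Os03g0122500, Os04g0373400 (1.57, adjusted p = 0.0304), Os12g0516200 (1.15, adjusted p = 0.0110) and Os04g0608100 (1.17, adjusted p = 0.00664, all by edgeR). In 2023 they were 5 (0.0267%), among them OsMADS1, Os06g0694200 (1.41, adjusted p = 0.0438), Os05g0102000 (−1.34, adjusted p = 0.0453) and Os12g0199000 (−2.47, adjusted p = 0.0348, all by edgeR). Without position Os06g0694200 was at 0.41 (adjusted p = 0.185 by edgeR) and Os05g0102000 at −0.69 in 2023, and Os04g0608100 at 0.87 in 2022. These 3 genes were thus not called in the fit of that year without position. Os12g0199000 had medians of 0.136 CPM in Hd3a-on and 2.56 CPM in Hd3a-off lines in 2023. It thus entered the 2023 test mainly through the Hd3a-off lines. In 2022, when it was too low to test, its medians were 0.439 CPM in Hd3a-on and 1.71 CPM in Hd3a-off lines. Year as block with position gave 15 calls (0.0766%).

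**Figure D5:**
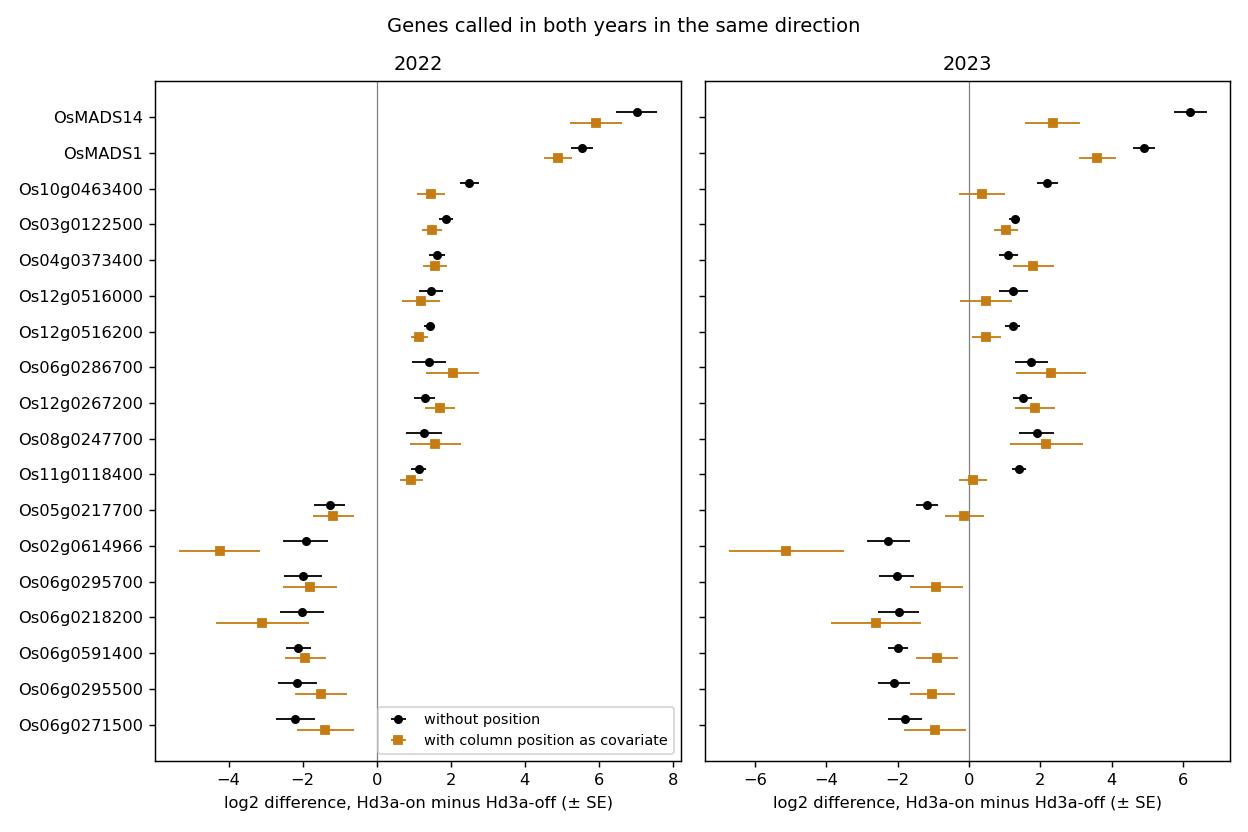
Log2 difference between Hd3a-on and Hd3a-off lines (x axis, with SE) of 18 of the genes called in both years, from the fit without column position (black circles) and with it (orange squares), 2022 left and 2023 right. OsMADS1 lies far from 0 in all 4 estimates, and OsMADS14 in 2023 is at 6.21 without and 2.35 with position.

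Genes of nitrogen assimilation, light perception, photosynthesis and the clock passed in 2022 more than in 2023, and 1 passed with column position. In 2022 all 7 tested nitrogen genes were higher in Hd3a-on lines, of 4 light perception genes 1 was higher and 3 lower, of 3 photosynthesis genes 1 was higher and 2 lower, and of 6 clock genes 3 were higher and 1 lower, where 17.5% of all genes were higher and 20% lower. In 2023 2 nitrogen genes were lower and 0 genes of the other lists passed (5.5% of all genes were higher and 3.03% lower). With column position 0 genes of these 4 lists passed in 2022 and 1, the clock gene OsLHY, in 2023, where 0.0554% and 0.251% of all genes passed. The median log2 difference of the nitrogen genes was 0.33 in 2022 and −0.06 in 2023 (all genes −0.01 and −0.00). The nitrate reductase gene NIA1 (Os08g0468100) was at 0.45 and −0.23, and the glutamine synthetase gene GS1;1 (Os02g0735200) at 0.24 and −0.19. The plastid enzymes GS2 (Os04g0659100) and Fd-GOGAT (Os07g0658400) were at 0.22 and 0.13 in 2022 and did not pass in 2023. The phytochrome genes PHYA (Os03g0719800), PHYB (Os03g0309200) and PHYC (Os03g0752100) were lower in 2022, at −0.28, −0.35 and −0.36, and at −0.01, 0.09 and 0.03 in 2023, where none passed. OsLHY (Os08g0157600), a morning gene of the clock, had medians of 1304 CPM in Hd3a-on and 616 CPM in Hd3a-off lines in 2022 and of 1748 CPM in Hd3a-on and 1753 CPM in Hd3a-off lines in 2023. Its log2 difference was 1.02 (adjusted p = 1.40e-09) and −0.03 (adjusted p = 0.783), and with column position 0.01 in 2022 and −0.43 in 2023 (adjusted p = 0.0463, all by edgeR). The evening clock gene OsGI (Os01g0182600) was at −0.17 in 2022 and −0.04 in 2023, and at 0.0403 and 0.16 with column position. With OsLHY as a covariate, 7 genes were called in 2022 and 46 in 2023, against 134 and 44 without it.

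Some genes of the other lists passed, more in 2022 than in 2023. Of 9 gibberellin genes 1 was higher and 2 lower in each year, of 6 sucrose and starch genes 2 were higher and 1 lower in 2022 and 0 passed in 2023, and of 7 plant type genes 2 were higher and 2 lower in 2022 and 0 passed in 2023 (edgeR, against the same backgrounds of 37.5% and 8.52%). Of 4 jasmonate genes 1 was lower in 2022 and 2 in 2023. Of 4 chlorophyll breakdown genes 1 was higher and 2 lower in 2022, and 1 was higher in 2023. Of 6 defence genes 2 were higher in 2022, and of 7 tested in 2023 1 was lower. Of 3 dehydration and cold genes 2 were higher in 2022, and of 5 tested in 2023 1 was lower. Of 5 phase change genes 2 were lower in 2022 and 0 passed in 2023. With column position 0 genes of all these lists passed in either year. Of the photosynthesis genes, RCA (Os11g0707000), Rubisco activase, was at 0.44 in 2022 and 0.02 in 2023, and the genes of the chlorophyll-binding proteins CAB1R (Os09g0346500) and CAB2R (Os01g0600900) were at −0.37 and −0.83 in 2022 and at −0.08 and 0.09 in 2023.

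Markers of leaf, panicle and dividing cells are given by their summed levels, since most of the panicle and dividing-cell genes were too low to test. The summed level of the 3 photosynthesis genes, each of which passed in 2022, was 45956 to 66147 CPM in Hd3a-on and 37922 to 69949 CPM in Hd3a-off lines in 2022. In 2023 it was 48038 to 70836 CPM in Hd3a-on and 52318 to 68798 CPM in Hd3a-off lines. The summed level of 8 panicle and meristem genes was at most 0.633 CPM in Hd3a-on and 0.930 CPM in Hd3a-off lines in 2022 and at most 0.949 CPM in Hd3a-on and 0.707 CPM in Hd3a-off lines in 2023, and none could be tested. Of these 8 genes 3 had 0 counts in all Hd3a-on libraries and 5 in all Hd3a-off libraries of 2022. Among 9 floral organ MADS genes, OsMADS16 (Os06g0712700) was read in all lines, with medians of 11.7 CPM in Hd3a-on and 9.41 CPM in Hd3a-off lines in 2022, and did not pass in either year (adjusted p = 0.762 and 0.956 by edgeR). Of 5 dividing-cell genes PCNA and MCM2 alone had enough counts to be tested, and they did not pass in either year (adjusted p 0.127 to 0.964 by edgeR). In a whole leaf, fewer cells of a type and less RNA per cell cannot be told apart.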

How the data were processed

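Leaf poly(A) RNA was sequenced in a stranded library from each of 100 JAM2 lines in each of 2 years. The authors deposited raw read counts per gene for 37849 loci, from unique exon reads per the table's name. The submitters' processing notes name genome build IRGSP-1.0. No aligner or counter is named in the sources used here. There was 1 library per line and year, so lines are the replicates of a group, and p-values measure the spread between lines.

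Genes were filtered with filterByExpr, scaled by TMM and tested within each year with edgeR 4.0.16 (quasi-likelihood, robust; R 4.3.3), leaving out Hd3a; p-values were Benjamini-Hochberg adjusted over all genes. SE was taken from the F statistic. Column position in the table of that year, year as block and the interaction of year and group were further fits. DESeq2 1.42.0 and voom (limma 3.58.1) were alternatives. The libraries of a line share its number by design; the estimated correlation was 0.102. The scripts were tested on simulated counts. Limits for a count of 0 used 3 counts and cover counting error only.

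Gene lists and the members were chosen with earlier results of these data known. Named were flowering regulators on the lists whose symbol could be matched, and the unmatched loci Os01g0218500, Os09g0540800 and Os10g0463400. Values of the other unmatched loci on the flowering lists are not given here. Members of other lists called in both years or most abundant were named, as were calls within 20 loci of Hd3a. So were the 10 largest changes in each direction called in both years with a mean of at least 1 CPM. Genes called with column position, and those of opposite direction, were added after their values were seen. Symbols were kept where the RefSeq table (assembly ASM3414082v1, matched by symbol, chromosome and order) did not contradict them, for 136 of 213 pairs. The other loci, where given, are named by their identifiers. A further gene called in both years is counted among all genes and not reported here.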

Additional observations from a re-analysis of the deposited data

Results flagged for a closer look

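For 20 named genes the group difference itself differed between the years, by edgeR's interaction of year and group at an adjusted p under 0.05. Of all genes 27.8% passed that test, which takes the libraries of a line as independent. The value is the log2 difference in 2023 minus that in 2022. It was 2.35 for Os03g0165900 and 2.25 for Os05g0565400, the pair called in opposite directions, which were at 1.20 and 1.15 in 2023 and at −1.14 and −1.11 in 2022. Among flowering regulators it was 0.19 for OsMADS56, 0.69 for DTH8, 0.21 for Ehd3 and −0.15 for TRX1. Among light and clock genes it was −1.05 for OsLHY, 0.27 for PHYA, 0.44 for PHYB, 0.40 for PHYC and −0.35 for SE5, which makes the phytochrome chromophore. Among nitrogen genes it was −0.15 for Fd-GOGAT, −0.18 for GS2, −0.42 for GS1;1 and −0.68 for NIA1, all higher in Hd3a-on lines in 2022. The photosynthesis genes RCA (Rubisco activase), CAB1R and CAB2R (chlorophyll-binding proteins) were at −0.42, 0.29 and 0.93. The last were Os05g0102000 at −0.74 and Os12g0199000 at −1.77. With column position in the fit 2 genes of all tested passed the interaction; the part of position in these differences was not tested.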

How the results depend on the processing

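The counts of called genes depended on column position and on the filter. In 2022 (134 genes) the count was 904 without the filter, 7 with position, 6 with position and its square, 10 with line number, 7 with OsLHY, 205 with Hd3a-on at 5 CPM, 33 without the 30 deepest 2022 libraries and 14 in the shared range of positions. In 2023 (44 genes) it was 299 without the filter, 5 with position, 5 with its square, 16 with line number, 46 with OsLHY, 79 at 5 CPM, 19 without the deepest libraries and 9 in the shared range. In both years (19 genes) it was 64 without the filter, 2 with position, 2 with its square, 5 with line number, 6 with OsLHY, 4 without the deepest libraries and 0 in the shared range, where 14 and 9 were called in the single years; leaving out 1 line gave 16 to 21. With year as block (56 genes) it was 471 without the filter, 15 with position, 22 with its square, 31 with line number and 108 at 5 CPM. Counts summed per line, with no year term, gave 55. Voom with the line as replicate block gave 107, where the tool changed with the block. The interaction count of 5453 was 6286 with the line as block and 2 with position.

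Signs turned in some fits. Os02g0614966 was at 0.11 in 2022 by DESeq2 and 0.81 in 2023 in the shared range, where Os06g0591400 was at 0.22 and NIA1 at 0.0344. Os05g0565400 in 2022 was at 0.13 with position, 0.0015 with its square, 0.11 with line number and 0.11 with OsLHY. With position and with its square, OsMADS18 in 2023 was at −0.40 and −0.41, and in 2022 OsMADS22 was at −0.0201 and −0.0396 (−0.011 in the shared range), DTH8 at 0.0847 and 0.10 (0.0103 with OsLHY), Hd18 at 0.0864 and 0.0645 (0.13 with line number, 0.0536 with OsLHY) and OsGI at 0.0403 and 0.0167. Fd-GOGAT in 2022 was at −0.0009 with the square and GS1;1 at −0.058 with line number. The causes were not tested. Of 74 gene values that passed, 74 kept direction and call with DESeq2 size factors, 70 with total counts, 68 with DESeq2 and 11 with position. The shared range, the leave-outs of lines and the interaction fits with position or with the line as block were chosen after seeing the data. Group and position overlap little, so their parts cannot be told apart in most fits; low genes are limited by depth in the shallower libraries.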
